A study of Mus musculus with 272 samples.

Results

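The TALE homeobox genes *Pknox1*, *Pknox2*, *Meis1*, *Meis2*, *Meis3*, *Pbx2*, *Pbx3* and *Tgif1* were examined for their chromatin state in mouse skeletal muscle stem cells (MuSCs). They were taken by gene name from the GENCODE M21 annotation of the mm10 genome and are 8 of 21938 protein-coding genes, and of 55413 genes of any type, on the 21 assembled chromosomes. For each gene, the promoter was defined as 3 kb either side of every annotated transcription start site (TSS), and all peaks in the gene and within 50 kb either side of it were collected from 8 peak lists.

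The study asked how DNA breaks made by Cas9 are repaired in MuSCs in vivo, and its chromatin profiles were made to ask which chromatin features go with the repair outcomes. Of its 272 samples, 8 hold chromatin profiles, with 2 replicates each of ATAC-Seq, H3K4me3, H3K27me3 and H3K27ac. All 8 come from GFP+ MuSCs sorted from the hindlimb muscle of Pax7Cas9 mice, in which Cre driven by *Pax7* switches on a Cas9 and EGFP cassette at Rosa26, so every library carries the Cas9 allele and the cells are those of the *Pax7* lineage. The labels of these libraries give the tissue but no age, strain, treatment or number of animals, and nothing in them says whether the replicates are separate animals.

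TALE proteins are homeodomain transcription factors with an extra loop of amino acids between the first helices of the homeodomain. MEIS and PKNOX (also called PREP) proteins bind a short core site and pair with PBX proteins, and this pairing keeps PBX proteins in the nucleus. PBX and MEIS proteins are also known for binding next to the E-boxes of the myogenic factor MYOD1. TGIF proteins bind a similar core but recruit corepressors and dampen transforming growth factor signalling. Open chromatin is read here by ATAC-Seq, H3K4me3 marks promoters, H3K27ac marks active promoters and enhancers, and H3K27me3 is laid down by Polycomb complexes on silenced genes.

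Sequences of promoters that represent the chromatin states described below are shown first, so that the states can be read against their base composition. The RefSeq promoter table for the GRCm38.p6 build, which has the same chromosome lengths as mm10, holds 300 bases per promoter, 250 before and 50 after the start, and 5 of the 8 genes have an entry. For *Tgif1*, which has 5 entries, the one nearest the annotated 5′ end is shown. Each is printed 5′ to 3′ on the strand of the gene, with CG dinucleotides in capitals. They are the promoters of *Meis1* (chr11:19018920-19019219, minus strand), *Meis2* (chr2:116064570-116064869, minus strand), *Meis3* (chr7:16175145-16175444, plus strand), *Pbx2* (chr17:34592009-34592308, plus strand) and *Tgif1* (chr17:70853483-70853782, minus strand).
Meis1 promoter: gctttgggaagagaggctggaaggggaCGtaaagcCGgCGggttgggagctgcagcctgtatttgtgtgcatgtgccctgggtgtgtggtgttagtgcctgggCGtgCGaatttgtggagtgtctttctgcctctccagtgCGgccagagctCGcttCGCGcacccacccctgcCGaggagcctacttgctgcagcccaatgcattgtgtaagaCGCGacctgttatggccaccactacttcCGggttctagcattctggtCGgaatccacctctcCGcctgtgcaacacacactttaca
Meis2 promoter: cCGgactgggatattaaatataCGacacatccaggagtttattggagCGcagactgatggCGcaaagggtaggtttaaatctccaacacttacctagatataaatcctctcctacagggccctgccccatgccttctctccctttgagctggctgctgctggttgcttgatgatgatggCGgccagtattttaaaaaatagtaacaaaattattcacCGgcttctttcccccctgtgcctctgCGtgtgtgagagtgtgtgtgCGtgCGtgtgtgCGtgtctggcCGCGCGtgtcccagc
Meis3 promoter: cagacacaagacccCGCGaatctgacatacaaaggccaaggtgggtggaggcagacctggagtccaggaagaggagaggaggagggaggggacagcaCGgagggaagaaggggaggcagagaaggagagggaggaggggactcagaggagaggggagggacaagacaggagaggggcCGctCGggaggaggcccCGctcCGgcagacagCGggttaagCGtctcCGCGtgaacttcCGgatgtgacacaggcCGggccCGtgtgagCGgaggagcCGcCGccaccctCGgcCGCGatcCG
Pbx2 promoter: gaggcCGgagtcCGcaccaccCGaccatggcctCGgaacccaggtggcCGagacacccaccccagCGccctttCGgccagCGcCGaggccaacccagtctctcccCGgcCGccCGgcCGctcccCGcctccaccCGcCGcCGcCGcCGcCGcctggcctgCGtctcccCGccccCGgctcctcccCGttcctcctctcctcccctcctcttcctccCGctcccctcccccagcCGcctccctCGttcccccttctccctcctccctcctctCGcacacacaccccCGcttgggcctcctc
Tgif1 promoter: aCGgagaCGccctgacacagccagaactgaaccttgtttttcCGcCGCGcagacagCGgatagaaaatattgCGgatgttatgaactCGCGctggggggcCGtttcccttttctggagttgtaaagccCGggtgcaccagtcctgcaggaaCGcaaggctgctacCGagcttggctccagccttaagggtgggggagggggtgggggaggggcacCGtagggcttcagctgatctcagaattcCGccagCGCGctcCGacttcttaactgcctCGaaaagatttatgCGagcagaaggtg
The *Meis2* window held the fewest CG dinucleotides of the 5, with 13, followed by *Meis1* with 15, *Tgif1* with 20, *Meis3* with 21 and *Pbx2* with 29. The median over all 32851 promoters of the table was 7, and the 5 windows stood at percentiles 62.9, 66.2, 74.4, 76 and 87.7 of that table. The GC content was 51% in *Meis2*, 58.3% in *Meis1*, 58% in *Tgif1*, 66.7% in *Meis3* and 76% in *Pbx2*. An H3K4me3 peak overlapped all 5 windows in both replicates. The *Meis1*, *Pbx2* and *Tgif1* windows were also overlapped by an H3K27ac peak in both replicates, the *Meis2* window by an H3K27me3 peak in both, and the *Meis3* window by neither mark. ATAC-Seq peaks overlapped the *Meis1*, *Meis3* and *Pbx2* windows in both replicates, the *Meis2* window in replicate 1 only, and the *Tgif1* window in neither. These *Meis2* and *Pbx2* starts lie inside the GENCODE genes, downstream of the annotated 5′ ends.

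The lists held 140937 and 94574 ATAC-Seq peaks, 20519 and 18006 H3K4me3 peaks, 6080 and 10485 H3K27me3 peaks, and 24217 and 18589 H3K27ac peaks in replicates 1 and 2. The read depth behind them is unknown, so a missing peak says only that none was called. The sorted cells carried promoter H3K4me3 in both replicates at 8 of 8 MuSC markers, among them *Pax7* and *Myf5*, and H3K27ac at 7. The same counts for H3K4me3 and H3K27ac were 3 and 1 of 6 for fibro-adipogenic markers, 2 and 1 of 5 for endothelial markers, 1 and 1 of 4 for blood markers, and 2 and 0 of 4 for myofibre markers, with no promoter peak in any list at *Dcn* and *Lum*. What part other cells have in the peaks around the TALE genes was not tested, and in a bulk peak list the share of cells that carry a mark and its level per cell cannot be told apart.

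All 8 TALE genes had open chromatin and H3K4me3 at their promoters in both replicates, but they differed in H3K27 state. Among all protein-coding genes, 67.8% had an ATAC-Seq promoter peak in both replicates and 60.8% an H3K4me3 promoter peak. Promoter H3K27ac was found in both replicates at 6 of the 8, *Pknox1*, *Pknox2*, *Meis1*, *Pbx2*, *Pbx3* and *Tgif1*, against 46.6% of protein-coding genes. Promoter H3K27me3 was found in both replicates only at *Meis2* among the 8, against 4.81% of protein-coding genes. In combination, those 6 genes carried H3K4me3 and H3K27ac without H3K27me3, a state of 44.4% of protein-coding genes. *Meis2* carried H3K4me3 with H3K27me3 and no H3K27ac, as did 2.88% of protein-coding genes, and *Meis3* carried H3K4me3 with neither H3K27 mark, as did 6.92%. With 8 genes and no contrast between conditions, these shares are descriptions and no test was made.

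**Figure D1:**
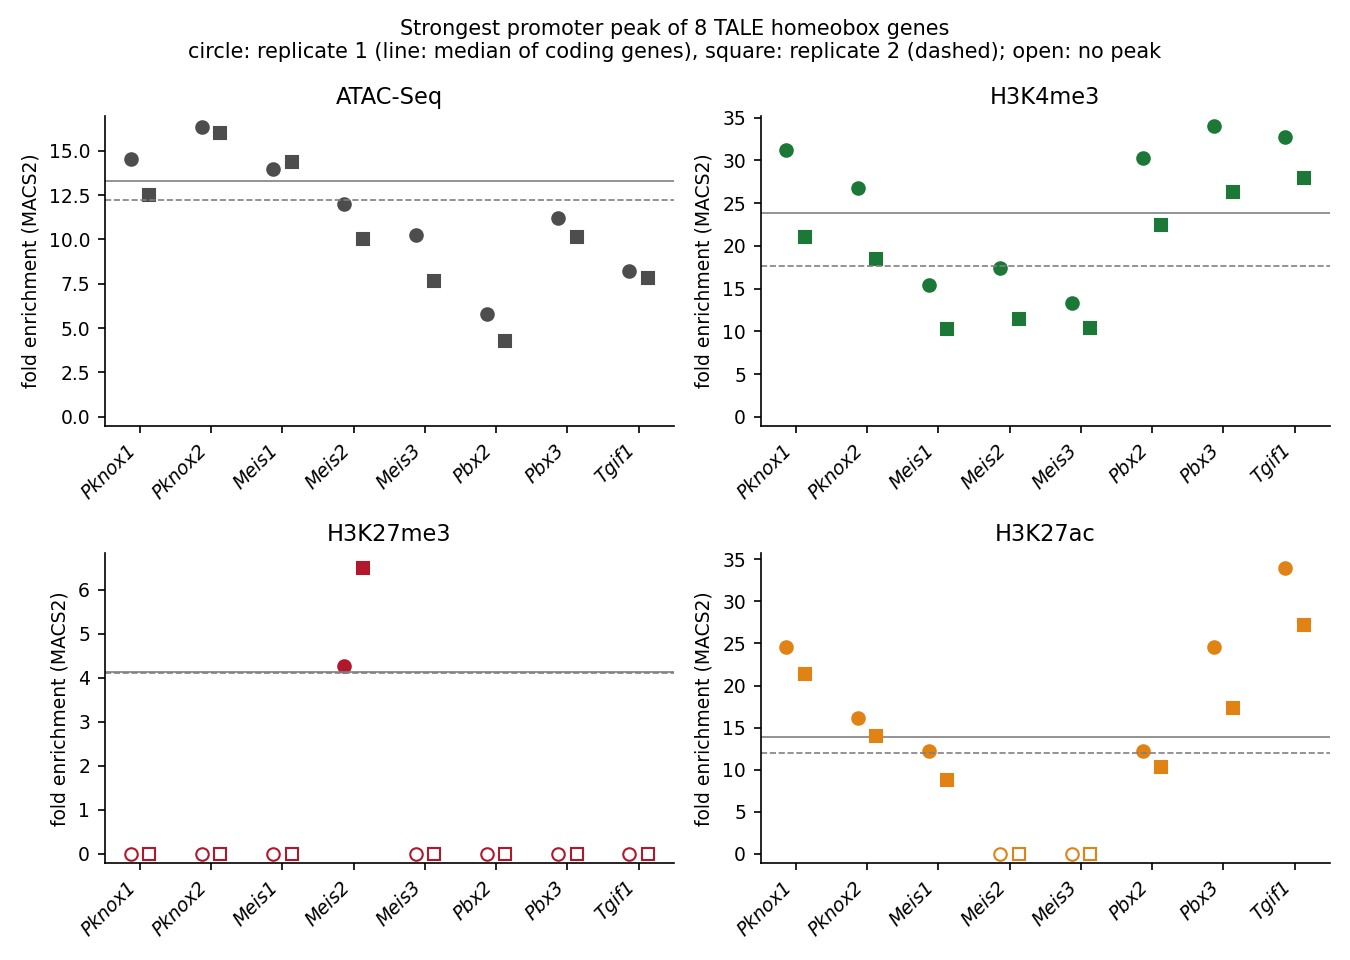
Fold enrichment over background, as called by MACS2, of the strongest promoter peak of each TALE gene in ATAC-Seq, H3K4me3, H3K27me3 and H3K27ac (y axes), with replicate 1 as circles, replicate 2 as squares, open symbols where no peak was called, and lines at the median of protein-coding genes with a peak in replicate 1 (solid) and replicate 2 (dashed). *Meis1*, *Meis2* and *Meis3* lie below the median for H3K4me3 in both replicates, *Tgif1* is highest for H3K27ac at 34 and 27.2, and *Meis2* alone has H3K27me3 symbols above 0.

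The PKNOX genes both had active promoters. *Pknox1* (ENSMUSG00000006705.13, chr17:31564734-31607693, plus strand, 14 transcripts) encodes the PBX partner also known as PREP1. Its strongest promoter peak had a fold enrichment over background of 14.5 and 12.5 for ATAC-Seq in replicates 1 and 2, with the summits 102 and 95 bp inside the gene in a noncoding part of an exon. The H3K4me3 peak there reached 31.2 and 21-fold over 2.01 and 1.88 kb, and the H3K27ac peak 24.5 and 21.3-fold. These peaks were ranked against the strongest promoter peaks of all protein-coding genes in the same list. The H3K27ac peak stood at percentiles 82.2 and 85, and the ATAC-Seq peak at 58.1 and 52.3. By this fold enrichment, *Pknox1* ranked higher for acetylation than for accessibility in both replicates. By summed width, its ATAC-Seq promoter peaks stood at percentiles 90.8 and 94.1 and its H3K27ac promoter peaks at 91.3 and 87.9. The promoter peaks also fall within 3 kb of the starts of an antisense transcript, *AC166172.4*, of the miRNA gene *Gm24970*, and of the unnamed transcripts *AC166172.2* and *AC166575.1*, so a peak cannot be assigned to 1 of these starts.

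Beyond its promoter, *Pknox1* lay among close neighbours. Its window held 30 and 22 ATAC-Seq peaks, of which 12 and 8 were at promoters of other genes such as *Cbs*, *U2af1* and *Ndufv3*. By fold enrichment, the strongest ATAC-Seq peak of the whole window was neither at the *Pknox1* promoter nor at a neighbour's. It lay in an intron 10.2 kb inside the gene, at 22.1 and 20.2-fold. Its −log10 q of 83.8 and 82.4 was below the 133 and 119 of the strongest promoter peak. No H3K27ac or H3K4me3 peak was called on the intronic site. Distal H3K27ac, meaning more than 3 kb from any annotated TSS, was found in both replicates at 2 places. One lay 22.8 kb upstream in intergenic sequence at 3.34 and 3.18-fold, and the other 48.7 kb downstream of the 5′ end, past the 3′ end of *Pknox1* and inside *Cbs*, at 4.6 and 4.57-fold. Both were narrow, between 239 and 434 bp.

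*Pknox2* (ENSMUSG00000035934.16, chr9:36890982-37147407, minus strand, 14 transcripts), which encodes PREP2, is one of the genes that the study targeted with sgRNAs and the longest of the 8 at 256 kb. Its H3K4me3 promoter domain measured 3.53 and 3.34 kb, wider than in 90.5% and 94% of protein-coding promoters with such a peak, while its fold enrichment of 26.7 and 18.4 stood at percentiles 58.6 and 53.8. The H3K27ac peak over the same start reached 16.1 and 14-fold across 2.33 and 2.44 kb. Neither replicate had an H3K27me3 peak anywhere in its 356 kb window. The strongest ATAC-Seq promoter peak, 16.3 and 16-fold, was not at the 5′ end but 7.72 and 7.73 kb inside the gene, within 3 kb of a further annotated start of *Pknox2* and of the start of *Gm48717*. At the 5′ end the ATAC-Seq peak was 11.3 and 9.57-fold.

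The body of *Pknox2* held more open sites than that of any other of the 8 genes. Its window had 39 and 34 ATAC-Seq peaks, of which 29 and 26 were distal and inside the gene, and 28 of 31 distal peaks of replicate 1 and 25 of 27 of replicate 2 were found in the other replicate. Given its length the density was moderate, 10.9 and 9.54 peaks per 100 kb, at percentile 64.7 of protein-coding genes, whereas the plain count stood at percentile 98.2. The share of distal open sites with H3K27ac over the whole lists was not computed. Around *Pknox1* it was 3 of 10 and 3 of 6, and around *Meis1* 0 of 17 and 0 of 13. In the *Pknox2* window, 6 of 31 and 5 of 27 distal ATAC-Seq peaks overlapped an H3K27ac peak of either replicate. Of these, 4 of 6 and 3 of 5 belong to 1 intronic domain whose H3K27ac summit is 93.8 kb from the 5′ end in replicate 1.

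That domain was the broadest distal H3K27ac peak found in both replicates around any of the 8 genes. It spanned chr9:37052449-37055151 in replicate 1, 2703 bp at 7.24-fold, and chr9:37052502-37055586 in replicate 2, 3085 bp at 9.93-fold. It held 4 and 3 ATAC-Seq peaks, the strongest at 8.61 and 8.04-fold, and 2 weak H3K4me3 peaks in each replicate between 2.35 and 4.22-fold. Of its 2 H3K4me3 peaks per replicate, 1 was found in the other replicate.

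To show what the open parts of distal elements consist of, the 201 bases centred on the ATAC-Seq summit of replicate 1 are printed for 4 elements. Bases are from GRCm38.p6 on the plus strand. The *Pknox2* and *Tgif1* elements are distal H3K27ac peaks. Those of *Meis1* and *Pbx3* are distal H3K4me3 peaks on which no H3K27ac was called. Further distal elements, such as those around *Pknox1*, are not printed. Capitals mark a TGACAG core (bound by MEIS, PKNOX and TGIF proteins) or a CAGCTG E-box (bound by myogenic basic helix-loop-helix factors), on either strand, and overlapping matches would run together. The windows are chr9:37054145-37054345 in an intron of *Pknox2*, 93.2 kb from its 5′ end, chr11:19027379-19027579, 8.49 kb upstream of *Meis1*, chr2:34249662-34249862 in an intron of *Pbx3*, 123 kb from its 5′ end, and chr17:70794411-70794611 in an intron of *Dlgap1*, 59 kb from the 5′ end of *Tgif1*.
Pknox2 element: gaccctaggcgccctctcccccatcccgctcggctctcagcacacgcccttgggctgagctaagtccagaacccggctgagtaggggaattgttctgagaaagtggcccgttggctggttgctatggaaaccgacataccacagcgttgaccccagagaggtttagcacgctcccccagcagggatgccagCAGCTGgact
Meis1 element: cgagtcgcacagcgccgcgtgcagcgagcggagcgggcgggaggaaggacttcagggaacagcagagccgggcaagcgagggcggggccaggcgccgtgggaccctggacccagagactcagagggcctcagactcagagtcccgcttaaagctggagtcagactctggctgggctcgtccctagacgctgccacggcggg
Pbx3 element: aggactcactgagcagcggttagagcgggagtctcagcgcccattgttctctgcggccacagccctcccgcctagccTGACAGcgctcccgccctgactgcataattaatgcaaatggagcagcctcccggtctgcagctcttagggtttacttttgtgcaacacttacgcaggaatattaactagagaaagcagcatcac
Tgif1 element: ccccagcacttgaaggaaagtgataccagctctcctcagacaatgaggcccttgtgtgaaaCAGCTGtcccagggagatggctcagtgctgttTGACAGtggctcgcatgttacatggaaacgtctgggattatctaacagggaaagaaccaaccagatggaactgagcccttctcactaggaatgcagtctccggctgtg
The *Pknox2* window held a CAGCTG E-box, the *Pbx3* window a TGACAG core, the *Tgif1* window one of each, and the *Meis1* window none of these letters. The *Meis1* window was the richest in G and C at 69.7%, against 61.2% for *Pknox2*, 54.7% for *Pbx3* and 51.7% for *Tgif1*. A match of letters is a description of the window and not a bound site. Over all ATAC-Seq summit windows around the 8 genes, TGACAG was found in 35 of 183 in replicate 1 (19.1%) and 27 of 137 in replicate 2 (19.7%), beside 17.2% and 18.8% of all ATAC-Seq peaks of the same lists. CAGCTG was found in 20.2% and 24.1%, beside 22.3% and 27.1% of all peaks. The longer TGATTGAC, part of the composite site of PBX and MEIS proteins, which can share its last letters with TGACAG, was in 0 and 1 windows, the latter around *Meis2*, and in 0.394% and 0.386% of all peaks. With windows of 50 bp either side of the summit, TGACAG was in 13.7% and 13.1% around the 8 genes, beside 9.64% and 10.6% of all peaks, a wider gap than in the longer windows. With only peaks at a −log10 q of at least 5, it was in 18.1% and 18.5%, beside 17% and 18.8% of all peaks. The gap was then smaller in replicate 1 and reversed in replicate 2. By gene, *Tgif1* had the largest share with TGACAG, 9 of 20 and 6 of 16 windows, followed by *Pknox1* with 9 of 30 and 6 of 22, and *Meis1* the smallest of replicate 1 with 2 of 28. Of the promoters printed above, those of *Meis1*, *Meis2*, *Meis3* and *Pbx2* held none of the 3 motifs, while that of *Tgif1* held CAGCTG. Of the other 4 *Tgif1* entries in the table, 2 held CAGCTG and 2 held TGACAG. The motifs occur in 19.2% (TGACAG), 0.77% (TGATTGAC) and 16.3% (CAGCTG) of the promoters in the table.

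The promoter profile of *Pknox2* was compared with those of all other protein-coding genes. By the mean absolute difference over the 8 lists in the percentile of the strongest promoter peak, with 0 where there was none, the nearest protein-coding gene was *Rps21*, a ribosomal protein gene, at 2.05 percentile points. *Myd88* and *Acaa1a*, an adaptor of innate immune signalling and a peroxisomal thiolase, followed at 2.31 each with identical percentiles in all 8 lists, so that they count as 1 profile. The ATAC-Seq percentiles of *Pknox2*, 68.8 and 74.6, are those of the peak 7.72 and 7.73 kb inside the gene, not at its 5′ end. With 1 kb either side of a start, its strongest ATAC-Seq peak went from 16.2 to 10.4-fold, as means of the replicates. The likeness was not recomputed with that window. Likeness here means a similar rank of promoter peaks and nothing more.

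The 3 MEIS genes, whose proteins are the other PBX partners of the class, each had a different H3K27 state. *Meis1* (ENSMUSG00000020160.18, chr11:18879817-19018985, minus strand, 9 transcripts), known for its roles in blood stem cells and the heart, had a promoter with ATAC-Seq at 14 and 14.3-fold, with summits 60 and 92 bp upstream of the 5′ end. H3K4me3 there was low in height, 15.5 and 10.3-fold at percentiles 27.4 and 22.1, but broad. Its promoter H3K4me3 peaks summed to 8231 and 7291 bp, which placed *Meis1* at percentiles 99.6 and 99.8 of protein-coding promoters with a peak. In replicate 1 most of this width was 1 peak of 7.9 kb, and in replicate 2 it was split into peaks of 3.67 and 3.63 kb. H3K27ac was also modest, with 4 promoter peaks in each replicate and a maximum of 12.3 and 8.83-fold, at percentiles 42.5 and 32.1. The antisense transcript *Gm16141* starts 5.17 kb inside *Meis1*, within the same H3K4me3 domain.

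Upstream of *Meis1*, a compact cluster of open chromatin peaked 8.49 kb from the 5′ end at 15.8 and 16-fold, above the fold enrichment of the *Meis1* promoter in both replicates. Its −log10 q of 52.5 and 62.1 was below the 106 and 107 of the promoter peak. An H3K4me3 peak of 14.1 and 8.37-fold covered the upstream cluster over 1439 and 1142 bp. No annotated TSS lies within 3 kb of that cluster, and no H3K27ac peak was called there. H3K27ac was in fact confined to promoter peaks in the whole *Meis1* window, in both replicates. Inside the gene, 10 and 6 distal ATAC-Seq peaks were called and none overlapped H3K27ac, while fewer of them recurred than in *Pknox2*: over all distal peaks of the *Meis1* window, 10 of 17 and 9 of 13 were found in the other replicate.

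Past the 3′ end of *Meis1*, both replicates showed a stretch of H3K27me3. It comprised 15 peaks over 8.79 kb in replicate 1 and 10 peaks over 7.3 kb in replicate 2, with 3177 and 4563 bp covered and fold enrichments from 2.95 to 5.6 and from 2.54 to 5.13. The stretch lies 142 to 151 kb from the 5′ end of *Meis1* and surrounds the start of the noncoding transcript *8430419K02Rik*, 5.51 kb from the *Meis1* 3′ end. H3K4me3 peaks bordered it on the *Meis1* side at 15.5 and 12.1-fold and lay within it at 6.62 and 5.37-fold. Of the H3K27me3 peaks, 10 of 15 and 9 of 10 met the q limit of 0.05 that the other lists used. The *Meis1* promoter itself had no H3K27me3 peak.

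**Figure D2:**
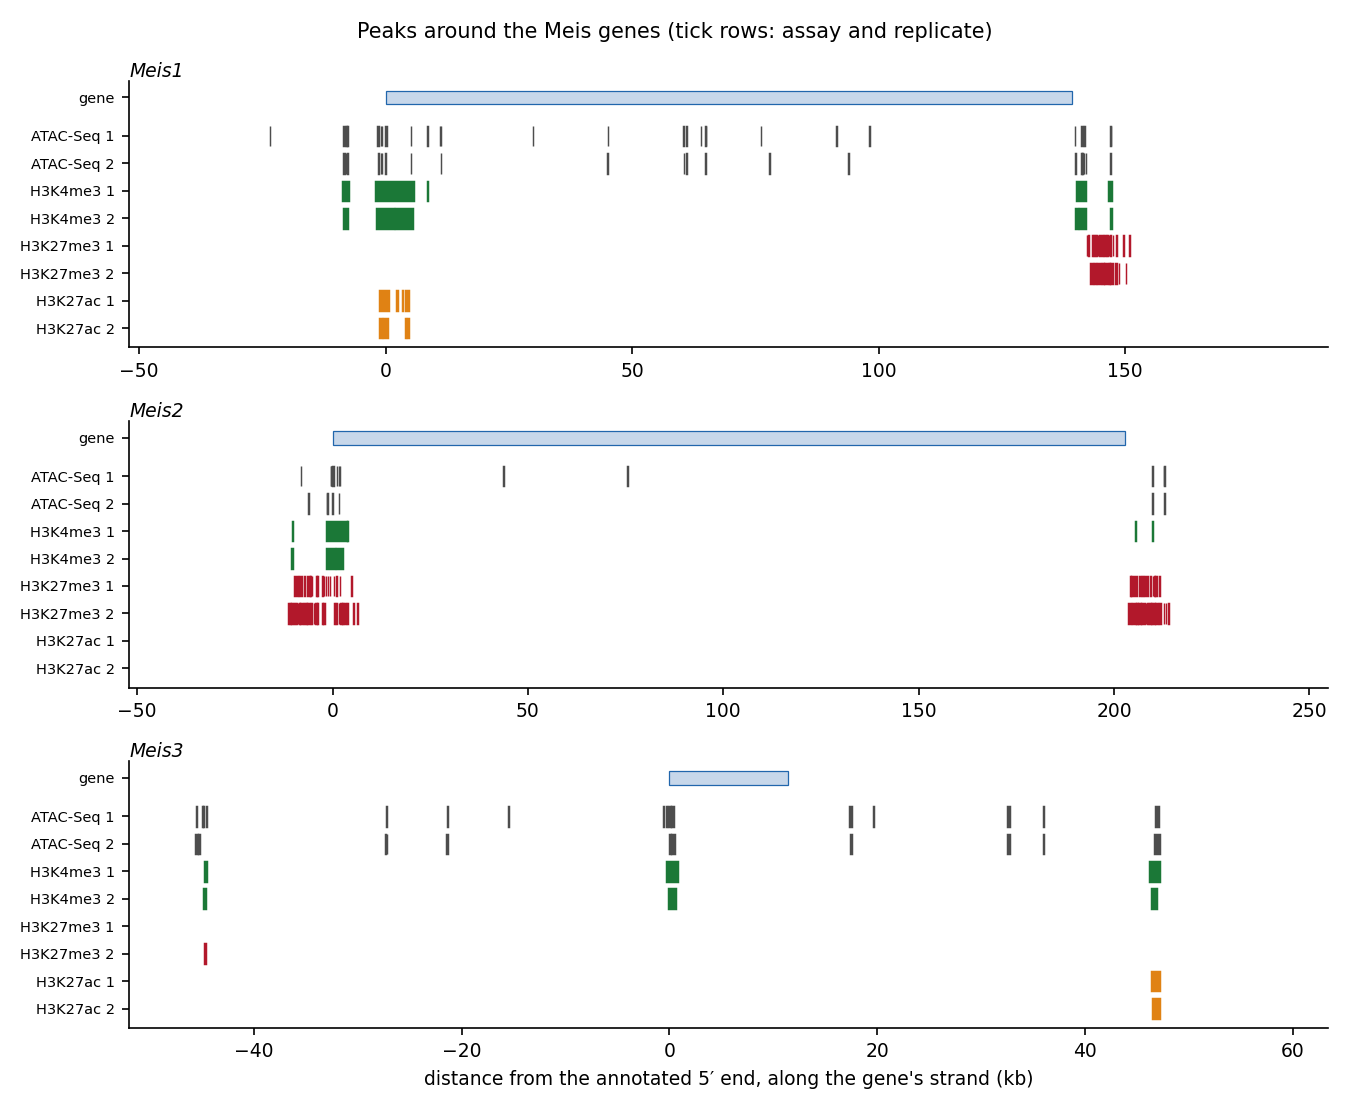
Peaks of the 8 lists around *Meis1*, *Meis2* and *Meis3*, drawn by distance in kb from the annotated 5′ end along the strand of the gene (x axis), with 1 row per assay and replicate, the gene as a pale bar, and each peak as a bar of its own width plus a thin outline. H3K27me3 appears past the 3′ end of *Meis1*, at both ends of *Meis2* and, as 1 peak of replicate 2, 44.7 kb upstream of *Meis3*, and *Meis2* has no H3K27ac.

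*Meis2* (ENSMUSG00000027210.20, chr2:115863064-116065839, minus strand, 19 transcripts), which acts in limb, neural crest and brain development, was the only one of the 8 with promoter H3K27me3. The promoter had 9 H3K27me3 peaks in replicate 1 and 11 in replicate 2, the strongest at 4.26 and 6.5-fold, of which 2 and 6 met the q limit of 0.05. Single peaks recurred poorly there: 3 of the 9 and 3 of the 11 overlapped a peak of the other replicate, and in none of these overlaps did both peaks meet the q limit. The strongest peaks lay 0.7 kb upstream of the 5′ end in replicate 1 and 2.65 kb inside the gene in replicate 2. At a −log10 q of at least 5, the promoter had no H3K27me3 call in both replicates. The same promoter carried H3K4me3 at 17.4 and 11.4-fold, over a summed 5584 and 4119 bp, wider than in 98% and 97.1% of promoters with a peak, and ATAC-Seq at 12 and 10-fold with summits 65 and 80 bp inside the gene. No H3K27ac peak was called in its 303 kb window in either replicate. Whether H3K4me3 and H3K27me3 lie on the same DNA or in different cells cannot be told from these lists.

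The H3K27me3 at *Meis2* formed a stretch at each end of the gene. At the 5′ end, 17 peaks over 14.8 kb in replicate 1 and 26 peaks over 18 kb in replicate 2 ran from 9.82 and 11.4 kb upstream to 5 and 6.55 kb inside the gene, covering 4908 and 7724 bp. They overlapped the promoters of the noncoding genes *2700033N17Rik*, *G630016G05Rik* and *2810405F15Rik*, and the strongest peak of replicate 1, 6-fold, lay 8.55 kb upstream rather than at the promoter. Past the 3′ end, 10 peaks over 7.66 kb and 15 peaks over 10.3 kb lay 204 to 214 kb from the 5′ end, with a maximum of 5.63 and 6.5-fold, more than 3 kb from any annotated TSS. ATAC-Seq peaks recurred at 10 and 7.06-fold within that stretch, 210 kb from the 5′ end, and at 8.9 and 10.3-fold at its far edge, 213 kb from the 5′ end.

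Between those ends, the *Meis2* gene body was almost bare. It held 2 distal ATAC-Seq peaks in replicate 1, neither found in replicate 2, 1 of them 101 bp wide at 35.8-fold, and none in replicate 2. The H3K27me3 count of the window, 27 and 41 peaks, stood at percentile 99.7 of protein-coding genes, and that of *Meis1*, 15 and 10, at percentile 98.4. These were the 2 of the 8 genes with H3K27me3 peaks in both replicates anywhere in the window, against 13.6% of protein-coding genes. That share was not matched for gene length. Per 100 kb, the H3K27me3 counts of *Meis2* and *Meis1* stood at percentiles 98.6 and 96.4.

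*Meis3* (ENSMUSG00000041420.18, chr7:16175090-16186504, plus strand, 9 transcripts) is 11.4 kb long and encodes a hindbrain patterning factor. Its promoter was open at 10.3 and 7.66-fold, at percentiles 29.5 and 18. H3K4me3 reached 13.3 and 10.4-fold in a single peak of 1189 and 844 bp, the narrowest of the 8 genes, at percentiles 22.3 and 16.2 for width. No H3K27ac or H3K27me3 peak was called at the promoter in either replicate. Elsewhere in the window, the H3K27ac peak of each replicate, 8.43 and 8.09-fold, lay at the promoter of *Dhx34*, and a lone H3K27me3 peak of replicate 2 lay at that of *Slc8a2*.

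The PBX genes, which encode the partners that MEIS and PKNOX proteins bind, both had active promoters and no H3K27me3. *Pbx2* (ENSMUSG00000034673.14, chr17:34591266-34597400, plus strand, 5 transcripts) had the weakest ATAC-Seq promoter peak of the 8, at 5.78 and 4.26-fold and percentiles 6.57 and 1.75. H3K27ac reached 12.3 and 10.3-fold with summits 1084 and 1111 bp inside the gene. Over the same place H3K4me3 was 26 and 15.2-fold. The nominally strongest H3K4me3 peak, 30.3 and 22.4-fold, was centred 3.82 and 3.85 kb upstream in *Notch4* and only reached into the promoter window, which also takes in the start of *Gpsm3*. The H3K4me3 value of *Pbx2* thus depended on the width of the promoter window.

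The surroundings of *Pbx2* were dense in promoters. In its 106 kb window, 19 of 24 and 15 of 18 ATAC-Seq peaks were at promoters of other genes, among them *Agpat1*, *Rnf5*, *Atf6b* and *Fkbpl*. With 8.48 and 9.42 H3K4me3 peaks per 100 kb the window stood at percentile 98.5, and all of its 8 H3K27ac peaks in each replicate were within 3 kb of an annotated start. No distal H3K27ac was called.

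*Pbx3* (ENSMUSG00000038718.15, chr2:34171457-34373142, minus strand, 10 transcripts) combined a strong promoter with few open sites in its gene body, 3 distal ATAC-Seq peaks in replicate 1 and 1 in replicate 2. Its H3K4me3 peak, at 34 and 26.3-fold, was at percentiles 79.6 and 82.8. The H3K27ac peak, at 24.5 and 17.3-fold, was at percentiles 82.2 and 73.6. The strongest ATAC-Seq promoter peak was 11.2 and 10.1-fold, at percentiles 35.4 and 34.4. By summed width, however, the ATAC-Seq promoter peaks stood at percentiles 88.4 and 89.3. Its summed H3K27ac width, 1159 and 1149 bp, stood at percentiles 41.9 and 50.6. That of H3K4me3, 2899 and 2678 bp, stood at percentiles 83.8 and 88.3. In an intron 123 kb from the 5′ end, an H3K4me3 peak of 967 and 816 bp at 9.8 and 7.02-fold recurred together with ATAC-Seq at 7.49 and 8.02-fold. It had no H3K27ac, and no annotated TSS lies within 3 kb. This was the only distal ATAC-Seq peak of the *Pbx3* window found in both replicates, out of 7 and 1.

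*Tgif1* (ENSMUSG00000047407.17, chr17:70844205-70853546, minus strand, 12 transcripts), the corepressor gene of the class, had the widest and most acetylated promoter of the 8. A single H3K27ac peak spanned 7.04 and 6.69 kb of the 9.34 kb gene and its upstream edge. It reached 34 and 27.2-fold, rank 625 of 10996 and 599 of 10316 protein-coding promoters with such a peak. H3K4me3 covered nearly the same interval in a peak of 8.09 and 7.53 kb at 32.7 and 27.9-fold, and its summed width stood at percentiles 99.7 and 99.8. The fold enrichment of accessibility did not follow, since the strongest ATAC-Seq promoter peak was 8.2 and 7.84-fold, at percentiles 17.7 and 19.2. By summed width, the ATAC-Seq promoter peaks stood high, at percentiles 89.4 and 90.9. The pseudogene *Gm9320* starts 0.221 kb upstream on the other strand within the same peaks.

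Around *Tgif1*, 7 and 4 distal ATAC-Seq peaks were called. In each replicate, 1 of them overlapped H3K27ac, 1 H3K4me3 and 1 H3K27me3, counting peaks of either replicate of the mark. The strongest, at 17.9 and 22.6-fold, lay in an intron of *Dlgap1*, 59 kb from the *Tgif1* 5′ end, and H3K27ac was called there at 5.37 and 3.68-fold. The H3K27ac peak of replicate 1 lay on the open site, while that of replicate 2 lay beside it and met the first only at its edge. A second site in *Dlgap1*, 35.3 kb away, had H3K4me3 at 4.13 and 3.41-fold in both replicates. H3K27me3 was called around that second site in replicate 2 only, as 4 peaks of 3.42 to 3.76-fold of which 2 met the q limit of 0.05.

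**Figure D3:**
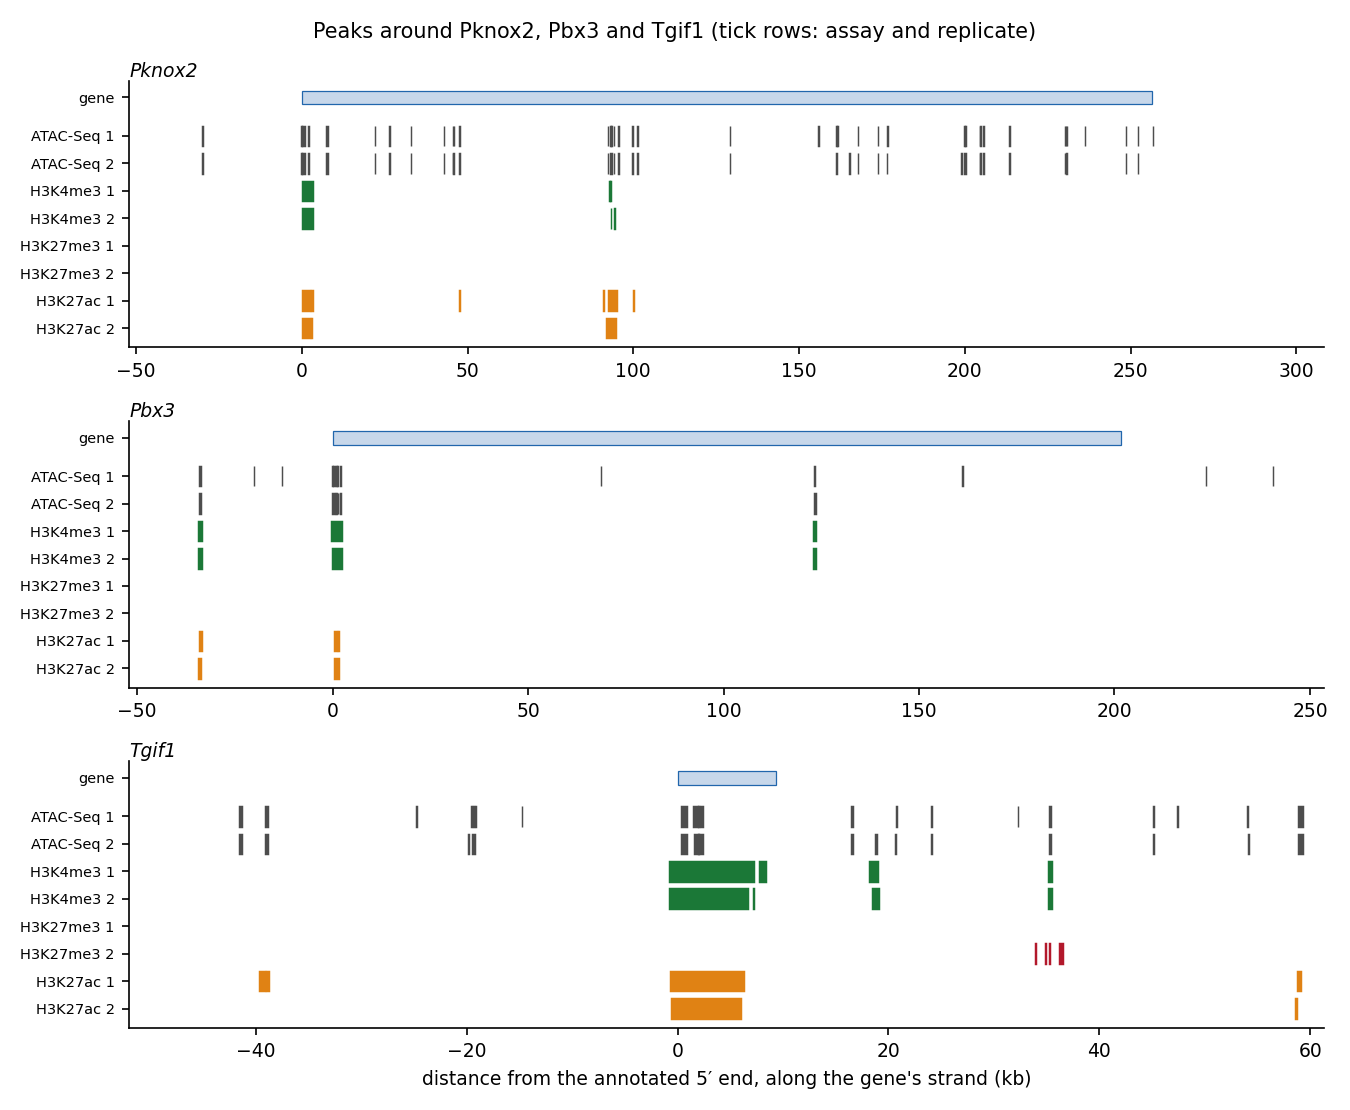
Peaks of the 8 lists around *Pknox2*, *Pbx3* and *Tgif1*, drawn by distance in kb from the annotated 5′ end along the strand of the gene (x axis), with 1 row per assay and replicate, the gene as a pale bar, and each peak as a bar of its own width plus a thin outline. The intron of *Pknox2* holds an acetylated domain near 93.8 kb, that of *Pbx3* an H3K4me3 peak with ATAC-Seq at 123 kb, and *Tgif1* is covered by H3K4me3 and H3K27ac over most of its length.

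Set side by side, breadth and height of the promoter marks ordered the 8 genes differently. By H3K4me3 fold enrichment, *Pbx3* led replicate 1 and *Tgif1* replicate 2, and the 3 MEIS genes were the lowest 3 of both. By summed H3K4me3 width, *Tgif1* and *Meis1* led in both replicates, at 8758 and 7703 bp and at 8231 and 7291 bp, and *Meis3* was last in both. The sum runs over all annotated starts of a gene, 11 for *Tgif1*, 7 for *Meis1* and 8 for *Meis3*. The 95th percentile of protein-coding promoters with a peak was 4325 and 3496 bp, which *Tgif1*, *Meis1* and *Meis2* exceeded in both replicates and *Pbx2* in replicate 1. *Pbx2* again owed part of its 5303 and 3417 bp to the neighbouring *Notch4* peak. Fold enrichment was lower in replicate 2 than in replicate 1 for all 8 genes in H3K4me3 and for all 6 acetylated genes in H3K27ac, and the median of protein-coding promoters was lower as well, at 17.6 against 23.9 for H3K4me3 and 12 against 13.9 for H3K27ac.

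**Figure D4:**
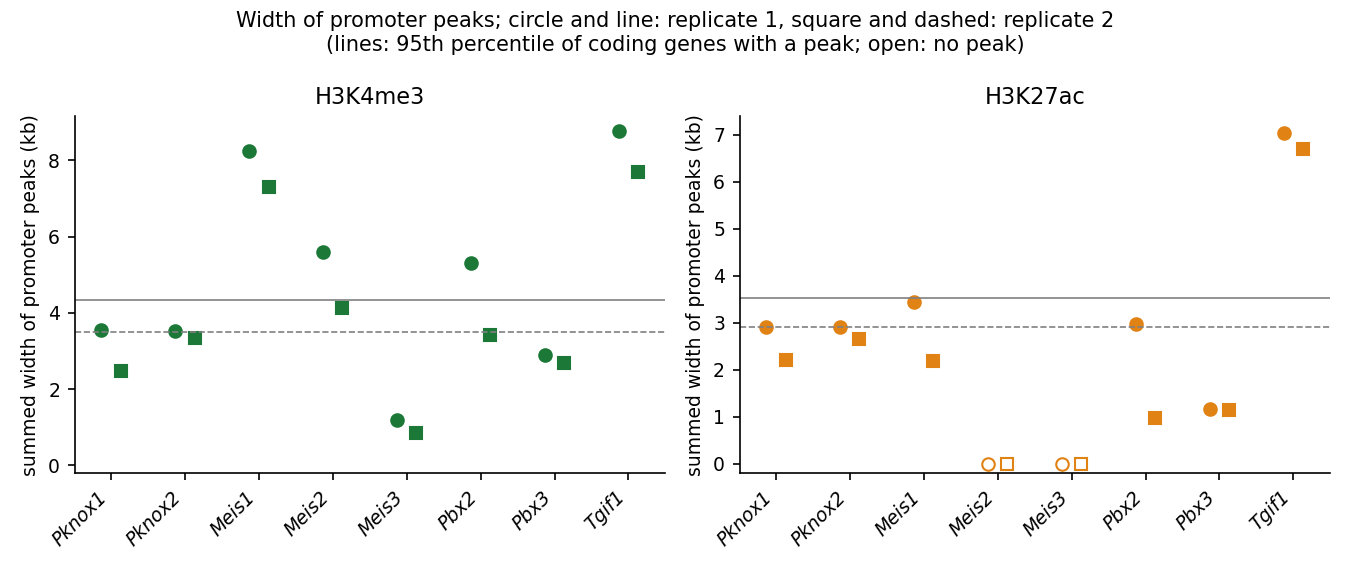
Summed width in kb (y axes) of the H3K4me3 and H3K27ac promoter peaks of each TALE gene, with replicate 1 as circles, replicate 2 as squares, open symbols where no peak was called, and lines at the 95th percentile of protein-coding promoters with a peak in replicate 1 (solid) and replicate 2 (dashed). *Tgif1* is above the lines for both marks, and *Meis1* and *Meis2* are above them for H3K4me3 in both replicates.

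Distal H3K27ac in both replicates amounted to 4 peaks around the 8 genes, 2 around *Pknox1* and 1 each around *Pknox2* and *Tgif1*. Of the 8 genes, 3 thus had at least 1, against 17% of protein-coding genes. Longer genes have longer windows, and this share was not matched for gene length. The *Tgif1* pair met only at the edges, and with only peaks at a −log10 q of at least 5 the *Pknox2* domain alone was left. Open chromatin was more plentiful, with 183 and 137 ATAC-Seq peaks over the 8 windows.

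**Figure D5:**
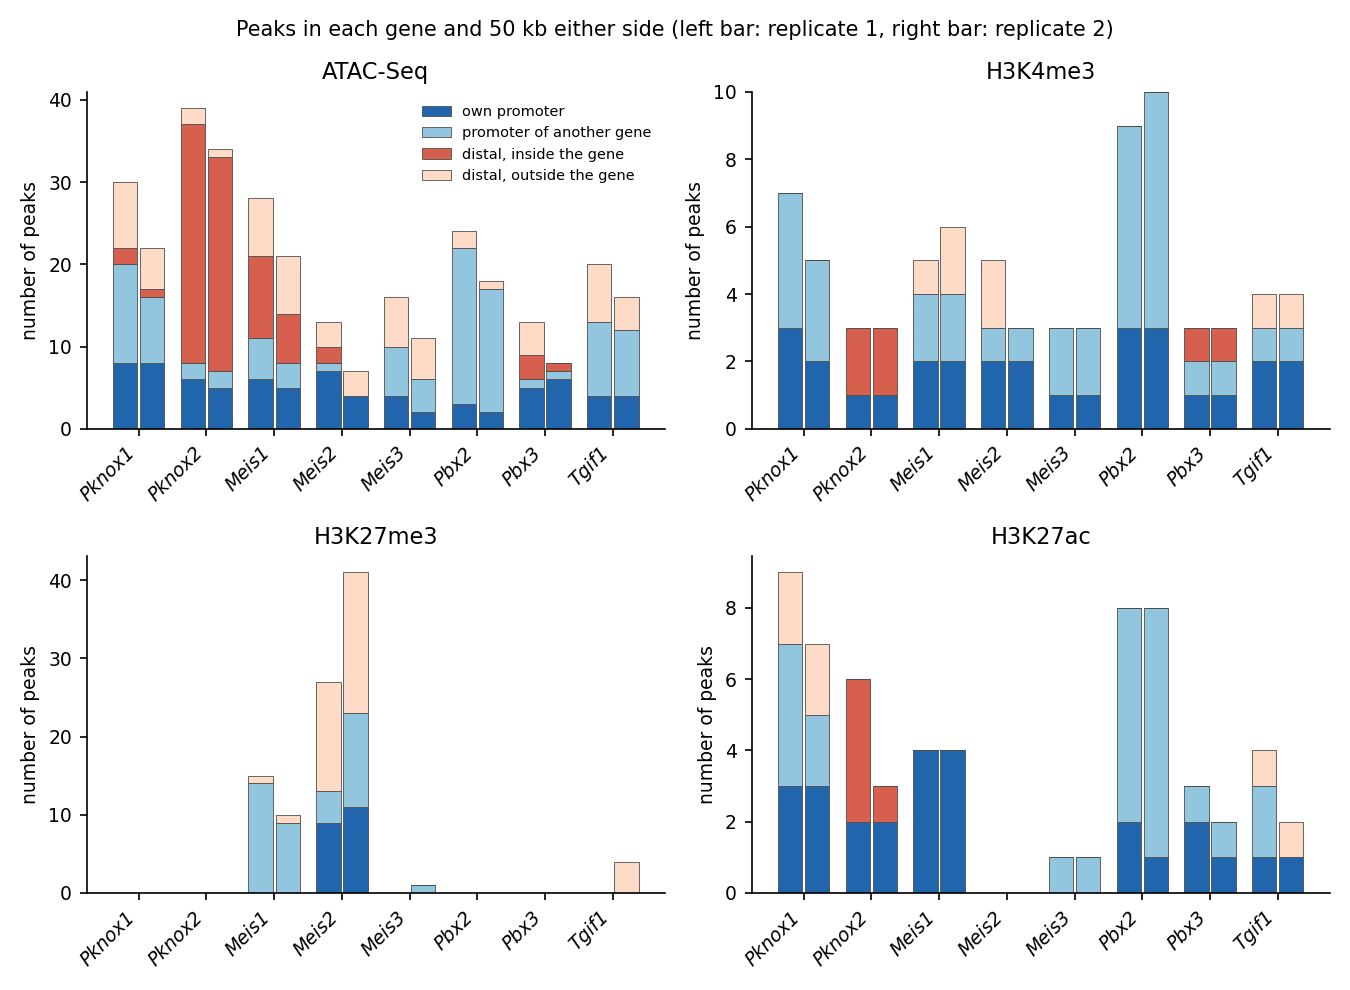
Number of peaks (y axes) in each TALE gene and 50 kb either side, by assay, with replicate 1 as the left bar and replicate 2 as the right bar of each pair, stacked by whether a peak is within 3 kb of a start of the gene itself, within 3 kb of a start of another gene, or distal and inside or outside the gene. Distal peaks inside the gene make up 29 of 39 and 26 of 34 ATAC-Seq peaks of *Pknox2*, while 27 and 41 of the H3K27me3 peaks belong to *Meis2*.

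The share of peaks that recurred between replicates was compared with that of the whole lists. A replicate 2 peak overlapped 70.5% of replicate 1 ATAC-Seq peaks, 79.5% of H3K4me3 peaks, 76.2% of H3K27me3 peaks and 65.7% of H3K27ac peaks around the genes. Over the whole lists these shares were 62.9%, 79%, 68.3% and 64.6%. In the other direction they were 86.1%, 97.3%, 57.1% and 100% around the genes and 84.7%, 98.7%, 34.8% and 91% over the whole lists. The widest gap was thus for H3K27me3 peaks of replicate 2, the longer of the H3K27me3 lists. That share rests on 2 genes, with 8 of 10 peaks found again around *Meis1* and 24 of 41 around *Meis2*. None of the 4 replicate 2 peaks around *Tgif1* and not the 1 around *Meis3* recurred.

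Other TALE genes gave the spread of states in the class. *Tgif2*, a close relative of *Tgif1*, carried H3K4me3 at 28.2 and 17.7-fold and H3K27ac at 17.2 and 11.2-fold, and no H3K27me3. *Pbx4* had H3K4me3 in both, and H3K27ac in replicate 1 alone. H3K27me3 in both replicates was found at all 6 *Irx* genes, which pattern heart, limb and neural tissue, and at *Mkx*, a tendon regulator. *Irx1*, *Irx2* and *Mkx* paired it with H3K4me3 and had no H3K27ac, as *Meis2* did. *Irx3* and *Irx5* had H3K4me3, H3K27me3 and H3K27ac together in at least 1 replicate, and *Irx4* and *Irx6* had H3K27me3 without H3K4me3. Of 9 genes for partners and corepressors of TALE proteins, all had ATAC-Seq and H3K4me3 in both replicates and 8 had H3K27ac in both, among them *Myod1* at 15.5 and 10.6-fold, *Smad3*, *Sin3a* and *Hdac1*. The exception was *Myog*, a factor of differentiating muscle cells, with weak H3K4me3 at 3.95 and 3.81-fold and no H3K27ac or H3K27me3.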

How the data were processed

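Chromatin was profiled by ATAC-Seq and ChIP-seq in sorted GFP+ MuSCs, with 2 replicates per assay. Per the labels and the study's methods, reads were trimmed with Trim Galore 0.6.10, aligned to mm10 with BWA 0.7.17-r1188, stripped of low-quality alignments, duplicates and blacklisted regions with SAMtools 1.5 and bedtools, offset for Tn5 in ATAC-Seq with deepTools 3.5.5, and peaks were called per library with MACS2 2.2.6. The deposited peak lists give, as the authors' caller wrote them, a score, a fold enrichment (a ratio over background), the −log10 p and q values and the summit of each peak. The H3K27me3 lists also hold peaks with q above 0.05, since they follow a limit on p. Fold enrichments are ranked within a list, and a difference between replicates is given beside the medians of both lists. The labels name an input library shared by H3K27me3 and H3K4me3 and another for H3K27ac. The 2 replicates of a mark thus have no separate inputs. Read depth is unknown.

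Peaks were intersected with GENCODE M21 genes in Python 3.11.15 (NumPy 2.4.6), with overlap from 1 bp. The overlap code was tested on 5000 simulated intervals. A percentile is the share of protein-coding promoters, or genes, with a lower value, ties counting in part. H3K27me3 stretches are at least 3 peaks no more than 10 kb apart. Motifs were searched on both strands within 100 bp either side of ATAC-Seq summits. Named were all 8 genes with the strongest promoter peak of each assay, up to 3 distal H3K27ac peaks of both replicates, genes sharing a promoter peak, the 3 genes most like *Pknox2*, and 2 gene lists. Other peaks and genes were named after their values were seen. The genes and lists were chosen with earlier results of these data known. There is no contrast between conditions, so no test was run, and 2 replicates give only the range of each value. A gene of the list of other TALE genes is not reported here.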

Additional observations from a re-analysis of the deposited data

How the results depend on the processing

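How many of the 8 genes had a promoter peak in both replicates did not change for ATAC-Seq, H3K4me3 or H3K27ac under a window of 1 kb, the 5′ end alone, a −log10 q of at least 5, and either replicate alone. For H3K27me3 the count of 1, *Meis2*, fell to 0 at a −log10 q of at least 5, where peaks per replicate over the 8 windows went from 49 to 2 and the share of replicate 1 peaks found in replicate 2 to 0. It remained 1 at q of at most 0.05. With 20 kb either side, H3K27ac peaks went from 31 to 20.5 per replicate. The 4 distal H3K27ac peaks became 3 without the *Tgif1* pair under a stricter overlap, 1 at a −log10 q of at least 5 and ranged from 4 to 7 with a single replicate, the 7 being those of replicate 1. The share of ATAC-Seq summit windows with TGACAG, 19.4% as the mean of the replicates, was 13.4% in windows of 50 bp either side and 18.3% at a −log10 q of at least 5. Of 261 values for single genes, 227 stayed within 1.5 times or within 1 SD of the replicates. That count includes fold enrichments and widths from a single replicate, which always lie within 1 SD of the mean of 2 replicates. These values could not move, so the count says nothing about them. With 1 kb either side of a start, the strongest *Pknox2* ATAC-Seq peak was 10.4-fold and the strongest *Pbx2* H3K4me3 peak 20.6-fold, as means of the replicates. No paired analysis was possible because the results come from no test between groups. Depth, which the lists do not give, limits what a missing peak can mean.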
